A study of Mus musculus with 8 samples.

Results

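Haemoglobin mRNA was abundant in mouse heart RNA and its values were lower in sham-operated fat-1 hearts than in sham-operated wild-type hearts, without passing the test. The 4 adult globin genes summed to 10500 and 9595 FPKM in the WT-Sham libraries and to 6145 and 4876 FPKM in the Fat1-Sham libraries. FPKM is the number of fragments of a gene divided by its transcript length and by the library's depth. The genes described are Hba-a1, Hba-a2, Hbb-bs, Hbb-bt, Alas2 and Slc4a1, the listed globin and erythroid genes, found in the table by the Ensembl identifiers of their symbols. They are 6 of 25929 genes in the table, and all 6 passed the filter on low values (1 FPKM or more in at least 2 libraries), as did 14442 genes in all. At an adjusted p under 0.1 and a fold change of 1.5, none of the 6 was called in any of 7 comparisons.

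The study asked how endogenous n-3 fatty acids alter the heart's response to pressure overload, and RNA was sequenced from 8 hearts, 2 in each of 4 groups. Wild-type mice (WT, strain label C57BL/6) and littermates of the transgenic fat-1 strain, whose added worm gene (fat-1 of Caenorhabditis elegans) encodes an enzyme that turns n-6 into n-3 fatty acids, were operated at 3 months of age. Transverse aortic constriction (TAC), which narrows the aorta with a suture and loads the left ventricle, lasted 8 weeks, and sham surgery left the aorta open. The promoter and tissue range of the transgene are not given in the sources used here. The labels name ventricular tissue while the methods name whole hearts, and whether blood was rinsed from the hearts is not given in the sources used here.

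Haemoglobin is a tetramer of alpha and beta chains, each holding a haem group that binds oxygen. Red cell precursors in bone marrow and spleen transcribe the globin genes at a very high rate, and young circulating red cells (reticulocytes) still carry globin mRNA after they lose the nucleus. Alas2 is the erythroid form of the enzyme that starts haem synthesis, and Slc4a1 is the anion exchanger of the red cell membrane. In heart tissue, these mRNAs are usually read as a sign of the blood it holds. In bulk RNA, fewer red cells and less mRNA per red cell cannot be told apart.

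The members of each globin pair are nearly the same gene, which bears on how far their levels can be separated. Positions are those of GRCm38, the build in the submitters' processing notes, with GENCODE M21 annotation. The alpha genes lie on chromosome 11, Hba-a1 at chr11:32283511-32284465 and Hba-a2 at chr11:32296489-32297298, both on the plus strand. The beta genes lie on the minus strand of chromosome 7, Hbb-bs at chr7:103826534-103828096 and Hbb-bt at chr7:103812524-103813996. Alas2 is at chrX:150547375-150570638 on the plus strand, and Slc4a1 at chr11:102348824-102366203 on the minus strand. The coding sequences of Hba-a1 and Hba-a2 differ at 1 of 426 bases, C381T, and those of Hbb-bs and Hbb-bt at 1 of 441 bases, C417T. In these substitutions the base of the gene named first comes first, and positions count from the A of the start codon. Both changes leave the protein the same. The coding parts of the last exons are shown because they hold the only base, in capitals, that tells each pair apart within the coding sequence. They are chr11:32284263-32284388 for Hba-a1, chr11:32297080-32297205 for Hba-a2, chr7:103826668-103826793 for Hbb-bs and chr7:103812659-103812784 for Hbb-bt.
Hba-a1: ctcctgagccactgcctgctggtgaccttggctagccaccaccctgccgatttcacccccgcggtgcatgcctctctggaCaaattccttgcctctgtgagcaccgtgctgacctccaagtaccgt
Hba-a2: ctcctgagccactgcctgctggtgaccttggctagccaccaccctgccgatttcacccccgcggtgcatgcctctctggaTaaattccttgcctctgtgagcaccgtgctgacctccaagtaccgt
Hbb-bs: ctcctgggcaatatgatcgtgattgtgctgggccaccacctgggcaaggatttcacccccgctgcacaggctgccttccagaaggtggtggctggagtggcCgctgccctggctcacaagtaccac
Hbb-bt: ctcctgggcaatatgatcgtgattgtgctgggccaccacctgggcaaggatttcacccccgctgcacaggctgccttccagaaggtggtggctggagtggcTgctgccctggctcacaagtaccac

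Over the whole annotated transcript, 74.5% of the 100-base windows of Hba-a2 also occur in Hba-a1, and 54.8% of those of Hbb-bt occur in Hbb-bs. How the authors counted fragments that match both genes is not given in the sources used here. The split between Hba-a1 and Hba-a2, and between Hbb-bs and Hbb-bt, is therefore uncertain. The sum of each pair also depends on whether such fragments were counted for either gene, for both or for neither.

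The upstream sequence was searched for 4 letter strings, on both strands, in the 250 bases before each RefSeq start (GRCm38.p6). They were GATAA, the letters of a GATA factor site, CACCC, the letters of a Krüppel-like factor site, CCAAT, the CCAAT box, and ATATAA, letters of a TATA box. Of the 6 genes, 5 have an entry, and each of the 4 globin genes held all 4 strings, as did 0.466% of 32851 promoters. Singly, GATAA was found in 22.6% of promoters, CACCC in 52.0%, CCAAT in 33.8% and ATATAA in 9.10%. These are matches of letters and not measured binding sites. Windows of 3 genes are shown with the matches in capitals, to set the arrangement at globin genes beside that of Alas2. They are chr11:32296292-32296488 on the plus strand for Hba-a2, chr7:103827929-103828011 on the minus strand for Hbb-bs and chrX:150547275-150547374 on the plus strand for Alas2.
Hba-a2: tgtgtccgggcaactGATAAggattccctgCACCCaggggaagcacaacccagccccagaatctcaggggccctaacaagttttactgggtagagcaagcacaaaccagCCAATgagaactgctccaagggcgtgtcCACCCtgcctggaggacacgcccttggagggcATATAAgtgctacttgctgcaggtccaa
Hbb-bs: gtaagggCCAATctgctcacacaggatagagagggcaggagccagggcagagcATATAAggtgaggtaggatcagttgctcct
Alas2: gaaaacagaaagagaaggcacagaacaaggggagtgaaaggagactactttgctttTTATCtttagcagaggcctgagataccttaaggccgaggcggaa

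The 197 bases shown for Hba-a2 occur without a change in the Hba-a1 promoter. For Hbb-bs, CACCC at 90 and GATAA at 209 bases before the start lie outside the window shown. The Alas2 window holds GATAA on the opposite strand, and CACCC lies on the opposite strand at 40, 35 and 30 bases before the start, outside the window shown. No CCAAT or ATATAA was found in the 250 bases of Alas2, which says only that these letters are not in that window.

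The 8 libraries held between 14163994 and 21218331 fragments. WT-TAC1 stands apart from the others. Its 10 cardiomyocyte genes summed to 25324 FPKM, against 46193 to 60862 FPKM in the other 7 libraries. Thymocyte genes summed to 1496 FPKM in WT-TAC1 and to at most 1.57 FPKM elsewhere. Airway and lung genes summed to 1510 FPKM in WT-TAC1, 3758 FPKM in WT-TAC2 and 83.2 FPKM in Fat1-Sham1, against at most 0.936 FPKM in the others. The part of these other cell types in the results was not tested. A gene is called below at a Benjamini-Hochberg adjusted p under 0.1 in limma on log2(FPKM + 1) with a fold change over 1.5, over all 14442 tested genes.

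By mean FPKM, Hbb-bs ranked 17 and Hba-a1 25 among all genes in the table. Hbb-bs, the major adult beta-globin gene in this table, was at 6137 and 5360 FPKM in WT-Sham and 2931 and 4632 FPKM in WT-TAC. It was at 3459 and 2693 FPKM in Fat1-Sham and 2617 and 3107 FPKM in Fat1-TAC. Both WT-Sham libraries lie above the other 6.

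Hba-a1, the main alpha-globin gene here, was at 3556 and 3589 FPKM in WT-Sham and 1361 and 2717 FPKM in WT-TAC. It was at 2137 and 1641 FPKM in Fat1-Sham and 1296 and 1632 FPKM in Fat1-TAC. The order of the libraries is close to that of Hbb-bs, with WT-Sham highest, WT-TAC2 next and WT-TAC1 among the fat-1 libraries.

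Hbb-bt, the second beta gene, was at 663 and 539 FPKM in WT-Sham and 377 and 634 FPKM in WT-TAC. It was at 383 and 303 FPKM in Fat1-Sham and 226 and 278 FPKM in Fat1-TAC. The Fat1-TAC libraries are the lowest of the 8.

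Hba-a2, the second alpha gene, had another order. It was at 144 and 107 FPKM in WT-Sham, 308 and 364 FPKM in WT-TAC, 167 and 239 FPKM in Fat1-Sham and 58.6 and 170 FPKM in Fat1-TAC. Here WT-TAC is highest and WT-Sham lies below Fat1-Sham.

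Alas2 was at 80.5 and 70.6 FPKM in WT-Sham and 48.3 and 88.2 FPKM in WT-TAC. It was at 52.2 and 35.7 FPKM in Fat1-Sham and 42.1 and 46.7 FPKM in Fat1-TAC. WT-TAC1 lies inside the range of the fat-1 libraries, and the other 3 WT libraries lie above it.

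Slc4a1 was near the limit of the depth, with 23 to 74 fragments per library. It was at 2.48 and 1.74 FPKM in WT-Sham, 2.07 and 3.45 FPKM in WT-TAC, 1.22 and 1.41 FPKM in Fat1-Sham and 2.02 and 1.06 FPKM in Fat1-TAC. The exact Poisson 95% interval of the lowest library, Fat1-TAC2, runs from 0.673 to 1.59 FPKM, and that of the highest, WT-TAC2, from 2.71 to 4.33 FPKM. These intervals cover counting error only.

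**Figure D1:**
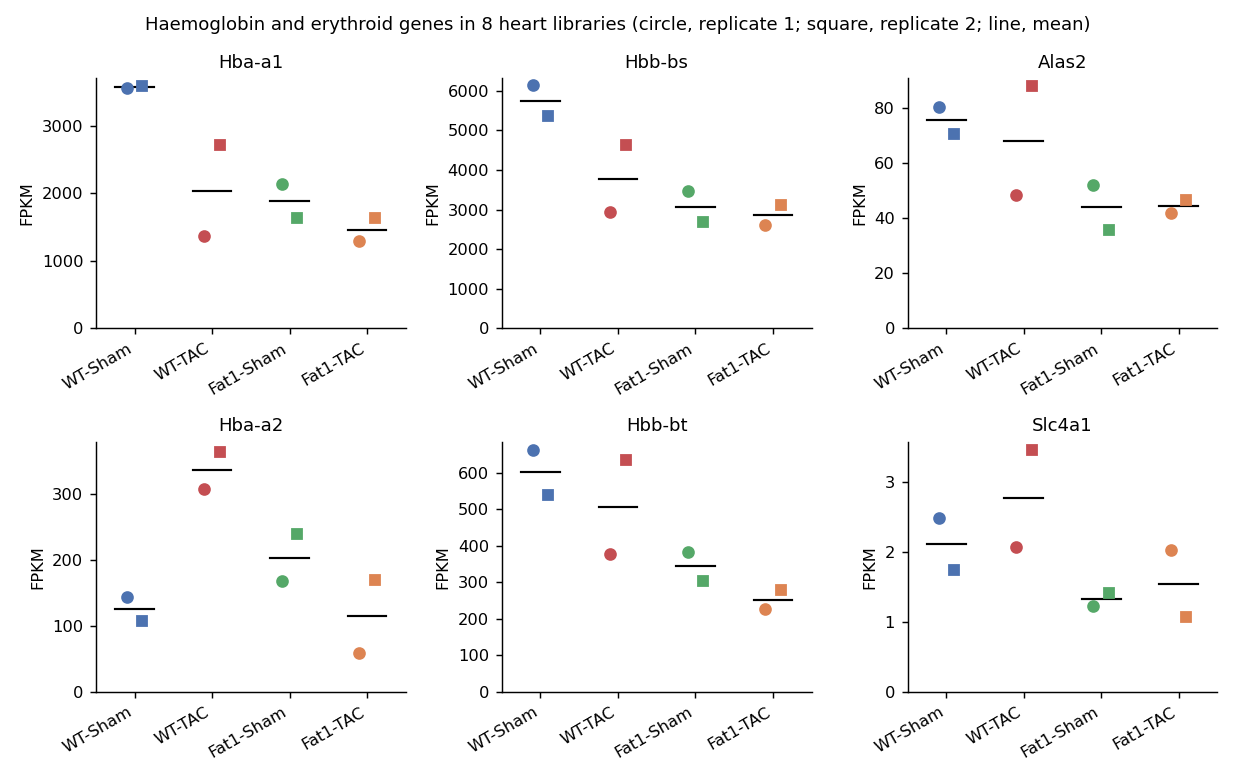
FPKM of each of the 6 genes (vertical axes, linear from 0, one scale per gene) in the 4 groups (horizontal axes), with a circle for replicate 1, a square for replicate 2 and a line at the group mean. Hbb-bs and Hba-a1 are highest in WT-Sham, at 5360 to 6137 and 3556 to 3589 FPKM, and Hba-a2 is highest in WT-TAC, at 308 and 364 FPKM.

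In level per length, the order of the means over 8 libraries was Hbb-bs, Hba-a1, Hbb-bt, Hba-a2, Alas2 and Slc4a1. Their ranges over libraries do not overlap except for Hba-a2, whose 58.6 to 364 FPKM reach into those of Hbb-bt and Alas2, and for Hbb-bs and Hba-a1, whose 2617 to 6137 and 1296 to 3589 FPKM overlap. Within each library Hbb-bs was above Hba-a1. The FPKM divide by the mean length of a gene's annotated transcripts, which is 460 bases for Hbb-bs and 597 for Hba-a1 although their main coding transcripts are 628 and 699 bases long. The alpha to beta ratio of summed FPKM was between 0.477 and 0.627, and between 0.543 and 0.715 per main transcript length.

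Fragments of the 4 globin genes were 0.549% of WT-Sham1 (Wilson 95% interval 0.545 to 0.553%), the highest share. They were 0.217% of Fat1-TAC1 (0.215 to 0.219%), the lowest. Counting error is small beside the spread between the 2 hearts of a group, which in WT-TAC ran from 0.259 to 0.439%.

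The effect of the transgene without overload was asked by setting Fat1-Sham against WT-Sham. Of the 6 genes, 5 had lower estimates in Fat1-Sham and Hba-a2 a higher one. Their median was -0.80 on the log2 scale, beside -0.01 over all tested genes. The log2 fold change was -0.93 ± 0.35 (SE, 2 libraries per group) for Hba-a1, -0.91 ± 0.30 for Hbb-bs, -0.81 ± 0.28 for Hbb-bt and -0.79 ± 0.30 for Alas2. It was -0.41 ± 0.30 for Slc4a1 and 0.68 ± 0.46 for Hba-a2.

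No member was called, and the background of called genes in this comparison was 0%. The adjusted p was 1 for each member by limma. At an unadjusted p under 0.05 with a fold change over 1.5, Hba-a1, Hbb-bs, Hbb-bt and Alas2 passed, 4 of 6, and 0.692% of all tested genes passed as lower. These 4 genes vary together over the libraries and are not independent of each other. For 5 of 6 members both Fat1-Sham libraries were below both WT-Sham libraries, which held for 16.5% of tested genes, and Hba-a2 was above, which held for 15.5%. Platelet and neutrophil genes were lower in the same comparison in their summed levels. Platelet genes summed to 51.4 and 88.9 FPKM in WT-Sham and 42.1 and 48.8 FPKM in Fat1-Sham, and neutrophil genes to 23.1 and 43.7 against 11.96 and 10.5 FPKM. Of the 5 platelet genes tested, 4 were lower and 1 higher, and all 4 neutrophil genes tested were lower. None of them was called, and their part in the result was not tested. Lymphocyte genes did not share this direction. Of 5 tested, 4 were higher and 1 lower in Fat1-Sham, with none called. Their sums overlapped, at 3.46 and 3.20 FPKM in WT-Sham and 4.10 and 2.69 FPKM in Fat1-Sham. Endothelial genes, a measure of vessel content, summed to 428 and 439 FPKM in WT-Sham and 457 and 419 FPKM in Fat1-Sham, which overlap.

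Pressure overload was examined in WT hearts by setting WT-TAC against WT-Sham. Hba-a1 had a log2 fold change of -0.89 ± 0.35 (SE) with an adjusted p of 0.179, and Hbb-bs one of -0.64 ± 0.30 with an adjusted p of 0.198. Hba-a2 went the other way, at 1.42 ± 0.46 with an adjusted p of 0.175. None was called, against 0.935% of all tested genes. Hbb-bt was at -0.29 ± 0.28, Alas2 at -0.20 ± 0.30 and Slc4a1 at 0.26 ± 0.30.

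The WT-TAC replicates disagree on this comparison. WT-TAC1 held 4977 FPKM of globin mRNA and WT-TAC2 8347 FPKM, while the cardiomyocyte genes of WT-TAC1 were low in the same measure. Without WT-TAC2 the fall of Hba-a1, Hbb-bs, Hbb-bt and Alas2 passed the test (Hba-a1 log2 fold change -1.39, adjusted p 0.00251), with 6.31% of all tested genes called lower, and without WT-TAC1 no member did. Each of these fits leaves 1 library in the WT-TAC arm, WT-TAC1 in the first, and assumes that it varies like the libraries of the other groups. The median of all tested genes was itself shifted by 0.39 in this comparison and by -0.40 between the TAC groups.

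In fat-1 hearts, TAC was set against sham in the same way. The 6 log2 fold changes ran from -0.99 for Hba-a2 to 0.11 for Slc4a1, and the adjusted p was 1 for each. None was called, against 0.00692% of all tested genes. The globin sum was 6145 and 4876 FPKM in Fat1-Sham and 4197 and 5187 FPKM in Fat1-TAC, so the groups overlap. The 95% interval for Hbb-bs ran from -0.82 to 0.62, so with 2 libraries per group a fall or a rise within it remains compatible with the data.

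The TAC groups of both genotypes were then compared. All 6 estimates were lower in Fat1-TAC than in WT-TAC, with a median of -0.56 beside -0.40 over all tested genes. With median of ratios scaling Hba-a1 (0.068) and Hbb-bs (0.10) were higher instead, and without WT-TAC2 Hba-a1 was at 0.095. Hba-a2 was at -1.73 ± 0.46 (SE) with an adjusted p of 0.146, Hbb-bt at -0.96 ± 0.28 with 0.157, and Slc4a1, Alas2, Hba-a1 and Hbb-bs between -0.57 and -0.37. None was called, against 1.43% of all tested genes. For Hba-a2, Hbb-bt, Alas2 and Slc4a1 both Fat1-TAC libraries were below both WT-TAC libraries, 4 of 6 members, and this held for 57.1% of tested genes. For Hba-a1 and Hbb-bs, WT-TAC1 overlapped the Fat1-TAC libraries.

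With both surgeries averaged, fat-1 was set against WT. The log2 fold change was -0.88 ± 0.20 (SE, 4 libraries per genotype) for Hbb-bt with an adjusted p of 0.216, and -0.67 ± 0.21 for Alas2 with 0.279. It was -0.67 ± 0.25 for Hba-a1, -0.64 ± 0.22 for Hbb-bs, -0.52 ± 0.33 for Hba-a2 and -0.49 ± 0.21 for Slc4a1. All 6 were lower, with a median of -0.65 beside -0.22 over all tested genes. None was called, against 0.0415% of all tested genes, and Hba-a1, Hbb-bs, Hbb-bt and Alas2 had an unadjusted p under 0.05 with a fold change over 1.5, as did 7.39% of tested genes as lower. Leaving out WT-TAC1, the library with the low cardiomyocyte sum, these 4 genes were called lower (adjusted p from 0.0635 for Hbb-bt to 0.0969 for Alas2), with 0.893% of tested genes called lower. Pf4, a platelet gene, was at 38.6 to 58.3 FPKM in WT and 30.8 to 36.7 FPKM in fat-1 libraries, with an adjusted p of 0.293. Of the 5 platelet genes tested, 4 were lower and 1 higher in fat-1 hearts with a median log2 fold change of -0.39, and their sum overlapped between genotypes (48.2 to 88.9 FPKM in WT, 36.1 to 48.8 FPKM in fat-1). All 4 neutrophil genes tested were lower, with a median of -1.07, none called, and their sum was 11.6 to 43.7 FPKM in WT and 6.79 to 11.96 FPKM in fat-1 libraries. The part of platelets and neutrophils in the result was not tested.

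The interaction of genotype and surgery, and TAC against sham averaged over genotypes, gave no call among the 6 genes, beside 0.0692% and 0% of all tested genes. The largest interaction estimate was that of Hba-a2, at -2.42 ± 0.65 (SE) with an adjusted p of 0.495. The comparisons share libraries, WT-TAC above all, and are not independent of each other.

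**Figure D2:**
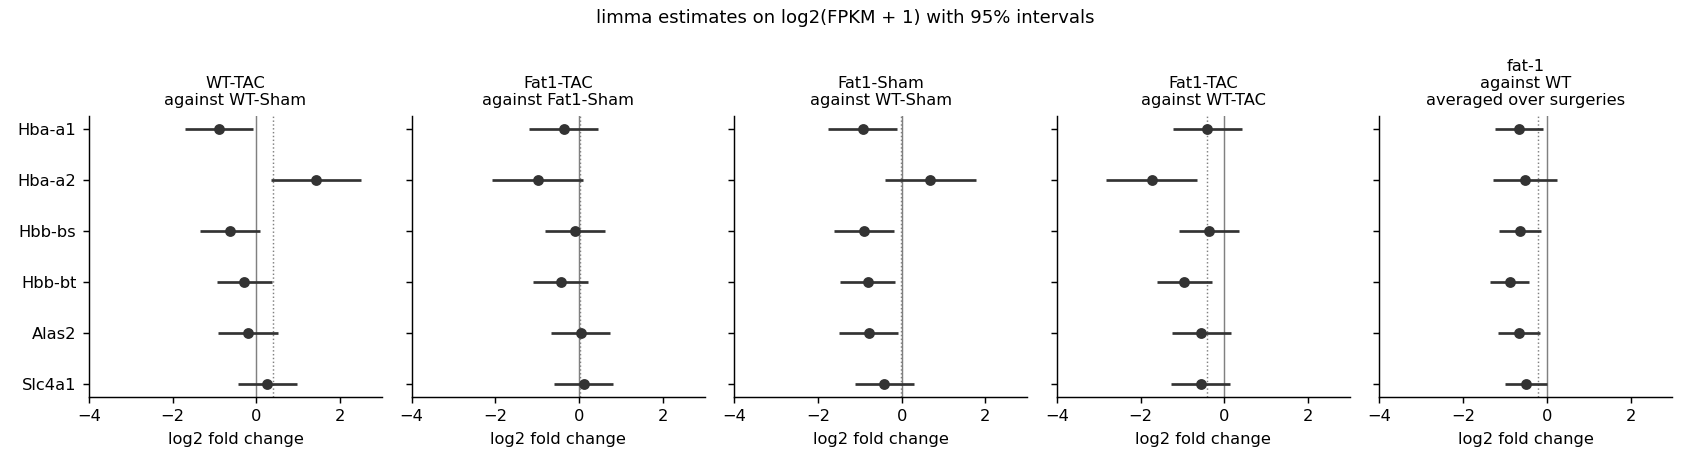
Estimates (points) and 95% intervals (lines) of the log2 fold change from limma on log2(FPKM + 1), horizontal axes, for the 6 genes in 5 comparisons, with a solid line at 0 and a dotted line at the median of all tested genes. In Fat1-Sham against WT-Sham the intervals of Hba-a1, Hbb-bs, Hbb-bt and Alas2 lie below 0, and Hba-a2 has opposite signs in WT-TAC against WT-Sham (1.42) and Fat1-TAC against WT-TAC (-1.73).

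Globin mRNA was also set against the muscle in the same library. The globin sum was 19.8 and 18.8% of the summed FPKM of 10 cardiomyocyte genes in WT-Sham and 19.7 and 18.1% in WT-TAC. It was 11.9 and 8.01% in Fat1-Sham and 7.85 and 9.48% in Fat1-TAC. All 4 WT libraries lie above all 4 fat-1 libraries, and WT-TAC1 sits with the other WT libraries on this measure. The cardiomyocyte sum itself was 25324 to 52906 FPKM in WT and 51797 to 60862 FPKM in fat-1 libraries. A higher sum lowers this percent for any gene, and the low sum of WT-TAC1 raises it there. Set against 8 endothelial genes the globin sum was 24.5, 21.9, 15.6 and 18.9 times theirs in the WT libraries and 8.54 to 13.4 times in the fat-1 libraries, again without overlap. The endothelial sum was 320 to 441 FPKM in WT and 419 to 492 FPKM in fat-1 libraries. The ratios were formed after the values had been seen and were not tested. The share of all tested genes that part the genotypes in the same ratios is not given here.

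The fit with all libraries scaled to the cardiomyocyte genes tests the same question gene by gene. It called Hba-a1 (log2 fold change -1.01), Hbb-bs (-0.98) and Hbb-bt (-1.23) lower in fat-1 hearts with surgeries averaged, each with an adjusted p from 0.0364 to 0.0371, and called 0.336% of 14570 tested genes lower. The median of all genes was -0.52 in that fit. Between the TAC groups it called all 4 globin genes lower, and 2.16% of tested genes, with a median of all genes of -0.94. Without WT-TAC1, which leaves only WT-TAC2 in its group, it gave a median of all genes of -0.35 there. With surgeries averaged and without WT-TAC1 it called Hba-a1, Hbb-bs, Hbb-bt and Alas2 lower in fat-1 hearts, with 1.52% of tested genes called lower and a median of all genes of -0.21. It called no member in Fat1-Sham against WT-Sham, where 0% of tested genes were called lower.

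**Figure D3:**
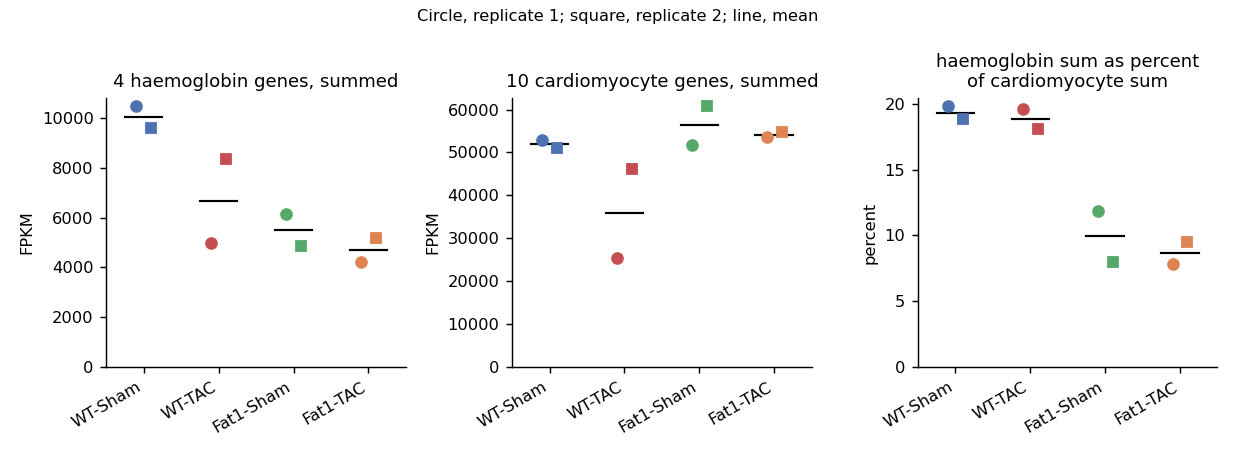
Summed FPKM of the 4 globin genes (left), summed FPKM of 10 cardiomyocyte genes (middle) and the first as a percent of the second (right) in each library, by group, with circles for replicate 1, squares for replicate 2 and lines at group means. WT-TAC1 has the lowest cardiomyocyte sum, 25324 FPKM, and the percent is 18.1 to 19.8 in the WT libraries and 7.85 to 11.9 in the fat-1 libraries.

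The make-up of the globin mRNA also varied. Alpha genes made up 32.3 to 38.6% of the globin FPKM over the 8 libraries. They made up 37.5 and 38.6% in Fat1-Sham and 32.3 and 34.7% in Fat1-TAC, while the WT groups overlapped (35.2 and 38.5% in sham, 33.5 and 36.9% in TAC). These shares are descriptions without a test, and how fragments that match both genes of a pair were counted bears on them.

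Within the alpha genes, Hba-a2 held 3.90 and 2.89% of the FPKM in WT-Sham and 18.4 and 11.8% in WT-TAC. It held 7.26 and 12.7% in Fat1-Sham and 4.33 and 9.44% in Fat1-TAC. The WT-Sham libraries are the lowest 2 of the 8 and WT-TAC1 the highest. The 2 hearts of a group lie far apart in every group but WT-Sham, and the 2 fat-1 groups overlap.

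Within the beta genes, Hbb-bt held 9.75 and 9.14% in WT-Sham, 11.4 and 12.04% in WT-TAC, 9.97 and 10.1% in Fat1-Sham and 7.95 and 8.22% in Fat1-TAC. The replicates of each group are close to each other. The TAC libraries lie above the sham libraries in WT and below them in fat-1 hearts, and the difference between the genotypes was not tested. How often such an order arises among all tested genes is not given here. Since fragments that match both genes cannot be assigned from the sequence alone, these shares carry the uncertainty of the pair.

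Alas2 was also set against the globin sum. Its FPKM were 0.767 and 0.736% of the globin FPKM in WT-Sham, 0.971 and 1.06% in WT-TAC, 0.850 and 0.733% in Fat1-Sham and 1.003 and 0.899% in Fat1-TAC. All 4 TAC libraries lie above all 4 sham libraries in this ratio, which was formed after the values had been seen and was not tested. The share of all tested genes that part TAC from sham in the same ratio is not given here. A lower globin sum raises this percent for any gene, and the sum was 10500 and 9595 FPKM in WT-Sham against 4977 and 8347 FPKM in WT-TAC. Alas2 itself had a log2 fold change with TAC of -0.20 ± 0.30 (SE) in WT and 0.04 ± 0.30 in fat-1 hearts. The genotypes overlap.

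**Figure D4:**
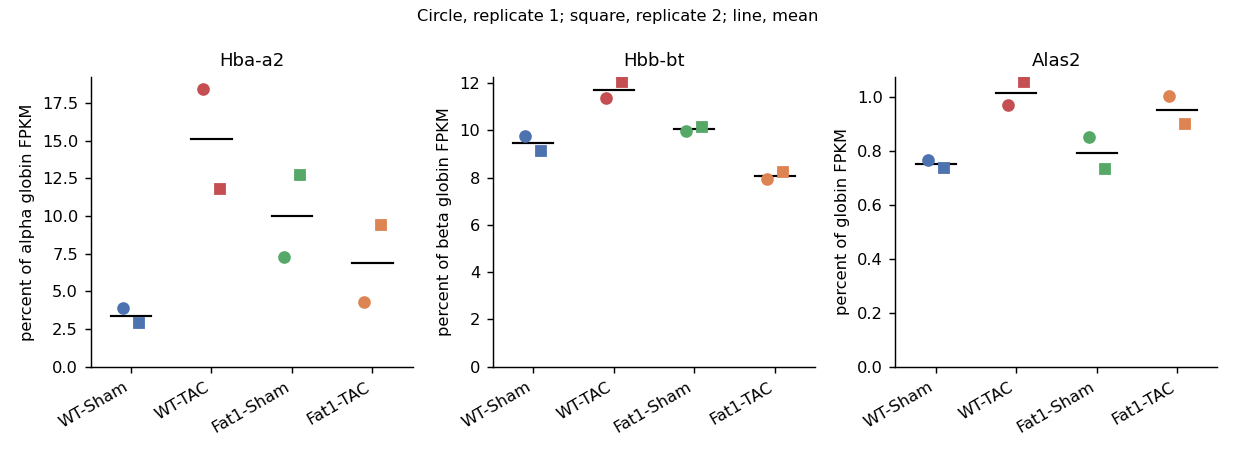
Share of Hba-a2 in alpha-globin FPKM (left, percent), share of Hbb-bt in beta-globin FPKM (middle, percent) and Alas2 FPKM as a percent of the summed FPKM of the 4 globin genes (right), by library and group, with circles for replicate 1, squares for replicate 2 and lines at group means. Hbb-bt is 11.4 and 12.04% in WT-TAC and 7.95 and 8.22% in Fat1-TAC, and Alas2 is at 0.899 to 1.06% in TAC libraries and 0.733 to 0.850% in sham libraries.

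The 6 genes were compared pairwise over the 8 libraries on log2(FPKM + 1), 15 pairs in all. Hba-a1, Hbb-bs, Hbb-bt and Alas2 varied together. Pearson's r was 0.97 for Hba-a1 and Hbb-bs (Spearman's rho 0.90, exact permutation p = 0.000298 and 0.00456, two-sided, and 0.00446 and 0.0228 adjusted over the 15 pairs). It was 0.92 for Hbb-bs and Hbb-bt, 0.92 for Hbb-bs and Alas2, 0.92 for Hbb-bt and Alas2, 0.89 for Hba-a1 and Hbb-bt and 0.85 for Hba-a1 and Alas2. The adjusted exact permutation p of these 6 pairs ran from 0.00446 to 0.0313 for r, and no other pair passed 0.05. For rho, between 0.74 and 0.90, it ran from 0.0228 to 0.115, and the pair of Hba-a1 and Alas2 did not pass. When the 2 libraries lying farthest from the first gene's median were dropped, r was between 0.80 and 0.96 in these pairs. The libraries share depth scaling and group, so the pairs are not independent of the study's comparisons.

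Hba-a2 stood outside this group. Its r with the other 5 genes was between 0.02 and 0.37, and with Hba-a1, of nearly the same sequence, it was 0.02 (rho -0.07, exact permutation p = 0.966 and 0.882). These values rest on a few libraries. Without Fat1-TAC1 and WT-TAC2, r of Hba-a2 was -0.79 with Hbb-bs, -0.71 with Alas2 and -0.57 with Hbb-bt, and without both WT-Sham libraries it was 0.53 with Hba-a1. Slc4a1 had r between 0.36 and 0.68 with Hba-a1, Hbb-bs, Hbb-bt and Alas2, none of which passed (adjusted exact permutation p from 0.135 to 0.522), and for its pair with Alas2 r fell from 0.68 to 0.09 without WT-TAC2 and WT-Sham1.

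The genes with the pattern most like the globin sum were ranked by Pearson's r over the 8 libraries among 14436 other tested genes, as a description. Among the highest were Thbd (r = 0.92), Ei24 (0.90), 9330158H04Rik (0.90), Gm10297 (0.89), Adgra2 (0.88), Col6a2 (0.88), Cntn2 (0.86), Rhobtb1 (0.86) and Nid1 (0.86). For Alas2 the nearest were Bpgm (r = 0.95), Gm10297 (0.94), Rhobtb1 (0.93), Adgra2 (0.93) and Dpep1 (0.92). The points share depth scaling and the group structure.

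Bpgm makes bisphosphoglycerate, which lowers the oxygen affinity of haemoglobin in red cells. It was at 60.0 and 58.1 FPKM in WT-Sham and 50.9 and 65.1 FPKM in WT-TAC, and at 44.2 and 34.4 FPKM in Fat1-Sham and 38.7 and 39.6 FPKM in Fat1-TAC. All 4 WT libraries, WT-TAC1 among them, lie above all 4 fat-1 libraries, which held for 4.56% of tested genes. The log2 fold change with surgeries averaged was -0.57 ± 0.13 (SE) with an adjusted p of 0.220, so Bpgm was not called.

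Of 23 listed membrane and enzyme genes, 21 are in the table and 12 were tested, and none was called in any of the 7 comparisons. With surgeries averaged, 6 were higher and 6 lower in fat-1 hearts, with a median log2 fold change of -0.03 beside -0.22 over all genes. After Bpgm, the highest were Ank1 (21.5 to 50.3 FPKM), Epb41 (26.4 to 54.4), Sptb (15.2 to 31.9) and Gypc (15.3 to 23.5). Dmtn, an actin-bundling gene of the membrane skeleton, was singled out after its values were seen. It also had all 4 WT libraries (1.79 to 2.69 FPKM) above all 4 fat-1 libraries (1.29 to 1.76 FPKM), as in 4.56% of tested genes. These ranges nearly meet, and the other 10 tested genes overlapped between genotypes. Ank1, Epb41 and Sptb, which encode parts of the membrane skeleton, are also transcribed in muscle, and Gypc, a glycophorin gene, in other cells.

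Several genes that mark nucleated red cell precursors were at or near 0. Klf1, an erythroid transcription factor, reached at most 0.108 FPKM, Gfi1b 0.148, Gata1 0.656, and Rhag, Car1 and Epb42, of the red cell membrane and cytoplasm, at most 0.0721, 0.183 and 0.222 FPKM. Hbb-y, an embryonic beta-like globin gene, was listed at 0 in 6 of 8 libraries and reached 0.0797 FPKM in the others. Trim10, which is transcribed late in red cell maturation, was between 0.296 and 1.04 FPKM. These genes were singled out after their values were seen, and other genes of the same lists were higher. Gata1 was highest in WT-TAC1, the library with thymocyte genes, where the globin sum was 4977 FPKM.

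**Figure D5:**
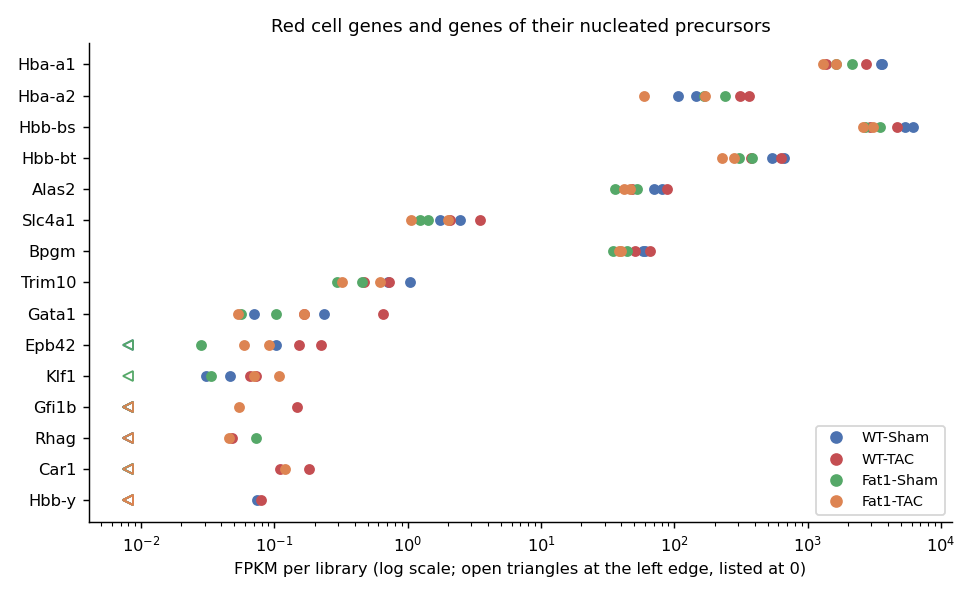
FPKM in each of 8 libraries (horizontal axis, log scale) for the 6 genes, Bpgm and 8 genes of nucleated precursors or embryonic red cells, with colours for groups and open triangles for values listed at 0. Hba-a1, Hbb-bs, Hbb-bt, Hba-a2, Alas2 and Bpgm lie at or above 34.4 FPKM in every library. Slc4a1, also of the 6, lies at 1.06 to 3.45 FPKM, and the precursor and embryonic genes lie at or below 1.04 FPKM.

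Of 10 listed erythroid transcription factors and receptors, 5 were tested and none was called in any comparison. Tfrc, the transferrin receptor that brings iron into many cells, was the highest at 21.1 to 52.9 FPKM, followed by Lmo2 (20.6 to 34.2), Zfpm1 (17.8 to 30.1), Tal1 (2.13 to 3.45) and Epor (0.972 to 2.26), the erythropoietin receptor. With surgeries averaged, all 5 were lower in fat-1 hearts, with a median log2 fold change of -0.05 beside -0.22 over all genes.

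All 10 genes of haem synthesis were tested and none was called. With surgeries averaged, 5 were higher and 5 lower in fat-1 hearts, with a median log2 fold change of 0.01 beside -0.22 over all genes. Alas1, the form of the first enzyme used outside red cells, was at 70.5 to 128 FPKM, Urod at 78.6 to 83.9, Fech at 31.5 to 52.3 and Uros at 21.0 to 29.4 FPKM. Slc25a37, which carries iron into mitochondria, was at 40.1 FPKM in WT-TAC1 and at 7.63 to 12.3 FPKM in the other 7, and was singled out after its values were seen.

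Of 10 genes that clear haemoglobin and haem, 9 were tested and none was called. With surgeries averaged 8 were lower and 1 higher in fat-1 hearts, with a median log2 fold change of -0.37 beside -0.22 over all genes. The highest were the ferritin gene Fth1 (1006 to 1298 FPKM), Lrp1 (87.3 to 182), Hp (1.61 to 146), Ftl1 (31.5 to 97.2) and Blvrb (13.7 to 24.6). Hp, which encodes haptoglobin, was at 23.6 and 56.2 FPKM in WT-Sham and 119 and 146 FPKM in WT-TAC. It was at 29.5 and 9.33 FPKM in Fat1-Sham and 1.61 and 45.3 FPKM in Fat1-TAC. WT-TAC held the highest airway sums. WT-Sham2 and Fat1-TAC2 lay above Fat1-Sham1 in Hp, with airway sums of 0.505 and 0.633 FPKM against 83.2 FPKM. A link of Hp to airway tissue was not tested. Cd163, the macrophage receptor for haptoglobin and haemoglobin, was singled out after its values were seen. It was at 12.4 and 13.7 FPKM in WT-Sham, 14.5 and 15.1 in WT-TAC, 11.0 and 9.51 in Fat1-Sham and 9.34 and 8.73 in Fat1-TAC, so that the genotypes do not overlap, as in 4.56% of tested genes, with an adjusted p of 0.236.

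Of the other globins, 6 of 10 listed genes are in the table. Mb, the myoglobin gene of muscle, was at 4593 to 11877 FPKM and Cygb at 18.3 to 38.6 FPKM. Mb was lowest in WT-TAC1 and highest in the Fat1-TAC libraries, an order unlike that of the haemoglobin genes, and was not called in any comparison.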

How the data were processed

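RNA was sequenced from 8 mouse hearts. The authors deposited FPKM values per Ensembl gene, and the submitters' processing notes name HISAT2 and the builds mm10 and GRCm38, without versions. The counting program and strand setting are not given in the sources used here. The labels number 2 samples in each group, and these were treated as independent. The limma p-values use a spread between replicates that is pooled over all 4 groups and moderated over genes. A comparison of 2 groups therefore also carries the spread of the groups outside it, and the SE of Hba-a1 was 0.35 in each of them. Columns of other series numbered 0.

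Whole fragments per library were recovered from the deposited FPKM by finding the gene length at which all 8 values are whole, to a tolerance of 0.02, for 25928 of 25929 genes. Of the genes, 90.1% came out at the mean length of their annotated GENCODE M21 transcripts, and 2 of 500 genes with values moved at random gave whole fragments.

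Tests used limma 3.58.1 (R 4.3.3) on log2(FPKM + 1), with 4 group means, all 8 libraries and a trend, and were tested on simulated data. The test had been set for FPKM in case no counts were held. Fold changes on this scale understate changes of low genes. Other scalings, filters, a pseudocount of 0.1, pairs of groups alone, a replicate block, limma-voom on recovered fragments and leaving out each library were tried, and scaling to cardiomyocyte genes without WT-TAC1 and the level per main transcript length were added after seeing the data. Members and lists were chosen with earlier results of these data known. Beyond the members, the text names up to 5 genes a list by mean FPKM and the genes with the highest r, of which some are not reported here. Promoters are from RefSeq. Hba-x, Hbb-bh1, Hbb-bh2, Ahsp, Cldn13, Icam4 and Rag2 were not analysed here.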

Additional observations from a re-analysis of the deposited data

Results flagged for a closer look

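The share of Hbb-bt in beta-globin FPKM moved in opposite directions with TAC in the 2 genotypes, every TAC library lying above the sham libraries in WT and below them in fat-1 hearts. The difference between the changes was -4.23 percentage points and was not tested. It rests on 2 hearts per group and on a gene pair of nearly the same sequence, for which the counting of shared fragments is not given in the sources used here.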

How the results depend on the processing

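No member was called in any comparison as reported, and these 0 counts rose under some settings. Leaving out 1 library also raised the count in some comparisons. Such a fit leaves 1 library in a group, so only the ranges of fold changes that change sign are given below. With scaling to cardiomyocyte genes the count was 4 in Fat1-TAC against WT-TAC, with 2.16% of tested genes called lower. It was 3 for fat-1 against WT averaged over surgeries, with 0.336% called lower. In Fat1-TAC against Fat1-Sham and Fat1-Sham against WT-Sham it stayed at 0 under each setting run. Why the counts moved was not tested, beyond the fewer samples and the other scaling. With the replicate block the count was 0 in each comparison. Deviations of same-numbered samples correlated between -0.14 and 0.02, so the samples share only a number.

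Of 577 alternative values of 31 fold changes, 530 kept direction and call, 29 were newly called and 18 had the opposite sign, among 8 fold changes not called as reported. In WT-TAC against WT-Sham these were Hbb-bt (0.23 with scaling to cardiomyocyte genes, 0.17 without WT-TAC1 as well), Alas2 (0.31 in both) and Slc4a1 (-0.060 with median of ratios, -0.33 with quantile normalization). Leaving out 1 library gave -0.67 to 0.085 for Hbb-bt, -0.63 to 0.22 for Alas2 and -0.0084 to 0.53 for Slc4a1. In Fat1-TAC against Fat1-Sham, Alas2 was at -0.0094 with median of ratios, and leaving out 1 library gave -0.23 to 0.30 for Alas2, -0.28 to 0.083 for Hbb-bs and -0.17 to 0.38 for Slc4a1. In Fat1-TAC against WT-TAC, Hba-a1 was at 0.068 and Hbb-bs at 0.10 with median of ratios, and leaving out 1 library gave -0.90 to 0.10 for Hba-a1. The cause was not tested.

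The count of correlated pairs was 6, and 4 to 6 when 1 library was left out. The mean alpha share of globin mRNA was 35.9%, 36.1% without Hba-a2 and Hbb-bt, and 38.9% per main transcript length. Slc4a1, at 23 to 74 fragments, is limited by depth, and 2 hearts per group limit every comparison.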
